A study of Homo sapiens with 24 samples.

Results

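The 6 libraries described here came from untreated SK-GT-4 cells, 3 from the cGAS KO clone and 3 from its Cas9 control clone, of 24 libraries in the whole series. SK-GT-4 is an established human esophageal adenocarcinoma cell line. The Cas9 control carried Cas9 and wild-type cGAS, and the cGAS KO carried Cas9 with a guide RNA against CGAS. Both were grown for 48 hours in DMSO, the diluent of the drug used elsewhere in the series, and each group had 1 library in each of 3 batches, so that a replicate number is also a batch number. The study's methods describe single-cell clones taken after lentiviral transduction. The labels do not say how many clones stand behind a genotype, so each genotype was treated as 1 clone, and the loss of cGAS and other differences between the clones cannot be told apart. P-values below measure the spread between these libraries. The other 6 SK-GT-4 libraries (the same clones in 500 nM of the MPS1 kinase inhibitor reversine, MPS1i) shared the fit and gave a repeat of the comparison, and 6 OE33 libraries in DMSO (Cas9 control and cGAS KO, 3 each) gave the same comparison in another esophageal adenocarcinoma line.

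cGAS is an enzyme that binds double-stranded DNA in the cytosol and makes the messenger cGAMP, which activates STING. STING recruits the kinase TBK1, which phosphorylates the transcription factor IRF3, and type I interferon and interferon-stimulated genes follow. Cancer cells with unstable chromosomes form micronuclei whose DNA can reach cGAS, and single-cell clones of such cells can differ in chromosome content. Columnar epithelial cells, from which esophageal adenocarcinoma is thought to arise, are marked by cell adhesion proteins such as E-cadherin (CDH1) and EpCAM, by claudins of the tight junction, by keratins and by secreted mucins and trefoil factors.

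The CGAS guide that the study lists is shown to give the place of the intended edit. The counts cover the whole gene and were not split at this site. It matched the GRCh38 reference at 1 place, chr6:73451711-73451730 on the plus strand, inside the coding part of exon 1 of CGAS, a gene on the minus strand. The sequence below runs 5′ to 3′, with the guide in lower case and the adjoining PAM in capitals. A cut at the usual place, 3 bases from the PAM, would fall after 454 of 1566 coding bases (29.0%).
CGAS guide site: atccctccgtacgagaatggGGG

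CGAS (ENSG00000164430, chr6:73413515-73452276) itself was measured first. It stood at 19.2, 15.3 and 20.6 CPM (read counts scaled to library size with TMM factors) in Cas9 replicates 1 to 3 and at 6.19, 4.27 and 3.56 CPM in the cGAS KO, so that every knockout library lay below every control. Its transcript was lower in the cGAS KO by a log2 difference of -2.01 (SE 0.31, adjusted p = 0.00403), and of -2.21 without cGAS KO replicate 1 (adjusted p = 0.00244). The edit need not remove the transcript, so this lower level does not measure the protein. STING1, which encodes STING, had 9.85, 8.43 and 7.09 CPM in Cas9 and 2.38, 6.02 and 6.74 CPM in the cGAS KO, and did not pass the test (log2 difference -0.83, adjusted p = 0.261; without replicate 1, -0.45, adjusted p = 0.553). Of 11 tested genes of a list of 12 for the cGAS-STING pathway, CGAS alone passed, with and without replicate 1, and the list's median was -0.17.

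Total counts in the 6 libraries were between 18246968 and 24681809, and 22782 genes passed the filter on low counts. cGAS KO replicate 1 stood apart from its group. Of 10363 expressed genes, 41.7% deviated by more than 1 on the log2 scale in that library from the mean of the other libraries of its group, and its deviation fell with gene length (median 0.81 over the 25% shortest genes and -0.73 over the 25% longest, with 72 ribosomal protein genes at a median of 1.77). It also had fewer genes with a count (19113, against 20966 to 21847 in the other 5) and a mitochondrial share of 1.21%, against 5.66% and 11.3% in the other cGAS KO libraries and 1.29% to 3.24% in Cas9. The same measure of deviation was 25.7% in cGAS KO replicate 2 and 5.87% in replicate 3, each taken against a mean that includes replicate 1. The part of RNA quality in these differences was not tested. Counts of called genes in the lists and runs below are given with and without replicate 1.

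With the threshold set at 0.05 for the adjusted p (quasi-likelihood test of edgeR, batch as a block), 1115 genes passed (4.89% of 22782), of which 652 genes were higher in the cGAS KO (2.86%) and 463 were lower (2.03%). Without cGAS KO replicate 1, 1245 passed (5.46%), 819 of them higher (3.59%) and 426 lower (1.87%). At the study's threshold of 0.01, 400 passed (1.76%). Of the first calls, 552 of 652 and 351 of 463 were made in both fits, and 0 changed direction. The counts rested on every library to some degree: leaving out Cas9 replicate 1, 2 or 3 left 307, 198 or 177 higher and 209, 138 or 151 lower genes, leaving out cGAS KO replicate 2 left 727 and 498, and leaving out cGAS KO replicate 3 left 232 and 118. Leaving out Cas9 MPS1i replicate 2, which shares the fit, gave 1224 and 964. Of 123 called genes that were chosen for naming by a rule, 61 kept the call in all 6 of these fits. For the others that are described below, the lost calls are stated. Counts of called members in the lists below stand beside these shares of all genes tested, 2.86% higher and 2.03% lower.

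The list of epithelial state genes had the highest median log2 difference of the 28 lists. All 12 members were tested, 12 had a difference above 0 (10 without cGAS KO replicate 1), and 5 rose, with a median of 2.19 against 0.03 over all genes tested. Without cGAS KO replicate 1, 7 rose and the median was 2.10. ESRP1, an RNA-binding protein that sets epithelial splicing, had 1.67, 2.01 and 1.47 CPM in Cas9 and 58.2, 91.8 and 87.6 CPM in the cGAS KO. The lowest cGAS KO library was far above the highest Cas9 library (log2 difference 5.50, SE 0.27, adjusted p = 2.6e-06). CLDN4, a tight junction claudin, had 3.7, 2.82 and 4.6 CPM in Cas9 and 65.9, 69.6 and 139 CPM in the cGAS KO (log2 difference 4.55, adjusted p = 6.74e-05). CDH1, the adherens junction cadherin, had 3.91, 14.4 and 9.81 CPM in Cas9, and 21.8, 177 and 206 CPM in the cGAS KO. The groups did not overlap, but cGAS KO replicate 1 was the nearest to Cas9 (log2 difference 3.53, adjusted p = 0.00202; 3.88 without that library). EPCAM, an epithelial adhesion molecule, was even across the controls (49.6, 47.6 and 45.8 CPM) and at 436, 209 and 286 CPM in the cGAS KO, here highest in replicate 1 (log2 difference 2.71, adjusted p = 0.00392).

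CDH3, which encodes P-cadherin, had 77.2, 121 and 90.7 CPM in Cas9 and 137, 439.6 and 435 CPM in the cGAS KO (log2 difference 1.67, adjusted p = 0.00925). This call was lost without Cas9 replicate 2, Cas9 replicate 3 or cGAS KO replicate 3, adjusted p between 0.0615 and 0.0807. RAB25, a GTPase of epithelial vesicle recycling, was at 0 counts in all 3 Cas9 libraries and at 0.238, 0.34 and 0.987 CPM in the cGAS KO, and passed the test only without replicate 1 (adjusted p = 0.0817 with it and 0.02 without it). ESRP2, a relative of ESRP1, also passed only without that library (log2 difference 0.95, adjusted p = 0.253, against 1.36 and 0.0339). CLDN3 and GRHL2, a claudin and an epithelial transcription factor, did not pass, with log2 differences of 0.40 and 0.50 that turned to -0.04 and -0.69 without replicate 1. The 12 genes summed to between 195 and 273 CPM in Cas9 and between 806 and 1300 CPM in the cGAS KO. In such bulk libraries, more cells that express a gene and more RNA per cell cannot be told apart.

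**Figure D1:**
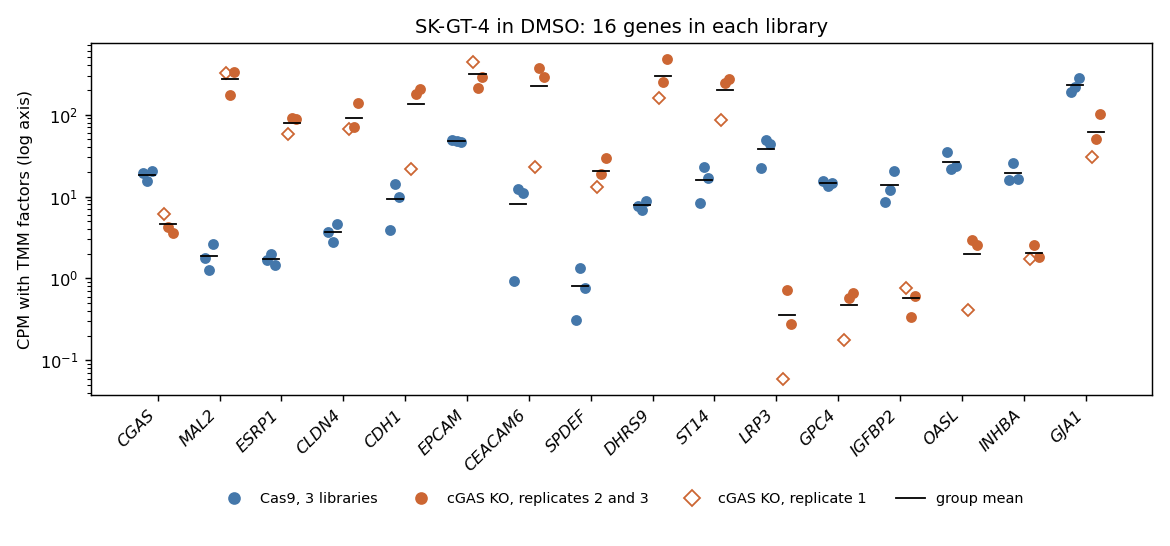
Each point is 1 SK-GT-4 library in DMSO, with CPM on a log axis and bars at the group means; open diamonds mark cGAS KO replicate 1. The 16 genes were picked from called genes. In all of them the 3 cGAS KO libraries lie on one side of the 3 Cas9 libraries. Of all genes tested, 9.72% had all cGAS KO libraries above and 11.3% had all below. MAL2 was at 1.28 to 2.64 CPM in Cas9 and at 174 to 328 CPM in the cGAS KO.

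Genes of the mesenchymal state did not move as one. Of 12 listed, 11 were tested, 2 fell (2 rose and 1 fell without cGAS KO replicate 1) and 5 had a log2 difference above 0, with a median of -1.13 that shrank to -0.46 without that library. ZEB2, a repressor of CDH1, had 2.4, 1.71 and 0.717 CPM in Cas9 and 0.0595, 0.583 and 0.165 CPM in the cGAS KO (log2 difference -2.50, adjusted p = 0.0341). SNAI1, another such repressor, had 15.3, 2.4 and 3.55 CPM in Cas9 and 1.55, 1.46 and 0.822 CPM in the cGAS KO, with Cas9 replicate 1 the highest by far (log2 difference -2.05, adjusted p = 0.0401). Both calls were lost without replicate 1 (adjusted p = 0.0544 and 0.103), and also without any 1 Cas9 library or cGAS KO replicate 3. SNAI1 lies on a part of chromosome 20 that was lower as a whole, by a median of -0.41 (-0.185 without cGAS KO replicate 1). VIM, the intermediate filament vimentin, had 92.6, 200.1 and 212 CPM in Cas9 and 78.3, 29.7 and 36.1 CPM in the cGAS KO. It passed only without that library (log2 difference -1.84, adjusted p = 0.111, against -2.43 and 0.0222). CDH2, N-cadherin, went the other way: without replicate 1 it was higher, by 1.1 (adjusted p = 0.0327).

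Genes of columnar, goblet and intestinal lineages rose in part. Of 32 listed, 26 were tested, 11 rose and 0 fell, with a median of 1.49. Without cGAS KO replicate 1, 10 rose. CEACAM6, a surface glycoprotein, had 0.938, 12.4 and 11.1 CPM in Cas9 and 22.7, 367 and 288 CPM in the cGAS KO. Replicate 1 was the lowest library in both groups, so the difference within its batch was about as wide as in the others (log2 difference 4.72, adjusted p = 7.34e-05). Its near relative CEACAM5 followed (4.22, adjusted p = 0.0121), though this call was lost without Cas9 replicate 2, Cas9 replicate 3 or cGAS KO replicate 3, adjusted p between 0.0624 and 0.101, and reads of the 2 genes may be shared. SPDEF, a transcription factor of goblet cells, rose from 0.313, 1.33 and 0.755 to 13.1, 19 and 29.7 CPM (log2 difference 4.75, adjusted p = 0.000164). HNF4A, a master regulator of intestinal and hepatic epithelium, had 0.313, 2.52 and 1.43 CPM in Cas9 and 5.06, 26.9 and 14 CPM in the cGAS KO (log2 difference 3.41, adjusted p = 0.00368). TFF1, a gastric trefoil factor, had 0.0521, 0.385 and 0.264 CPM in Cas9 and 5.18, 6.55 and 13.3 CPM in the cGAS KO (5.44, adjusted p = 0.00263). Its Cas9 libraries held 1, 9 and 7 counts, so its fold depends on few reads.

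AGR2, a protein disulfide isomerase needed for mucin folding, was already well expressed in the controls (52.1, 193 and 85.3 CPM) and higher in the cGAS KO (974, 686 and 659 CPM; log2 difference 3.24, adjusted p = 0.00984). It lost its call without Cas9 replicate 1, Cas9 replicate 2 or Cas9 replicate 3, adjusted p between 0.0536 and 0.0645. MUC13, a membrane mucin, and CLDN18, a gastric claudin, were at 2 counts or fewer in every Cas9 library, so no fold is given. MUC13 reached 0.774, 2.38 and 0.877 CPM in the cGAS KO (adjusted p = 0.0078, lost without Cas9 replicate 2, adjusted p = 0.0638). CLDN18 reached 0.0595, 1.36 and 6.91 CPM (adjusted p = 0.00479, lost without Cas9 replicate 3 or cGAS KO replicate 3, adjusted p between 0.0513 and 0.101). REG4, a secreted lectin, was at 0 in all Cas9 libraries and at 0, 0.291 and 0.603 CPM in the cGAS KO, at least 2.25-fold higher against a floor of 3 counts per library (adjusted p = 0.039). The mucin MUC1 and the transcription factor GATA6 made up the 11 (log2 differences 1.47 and 1.1, adjusted p = 0.0371 and 0.0489). The calls of these last 3 genes were each lost in 5 of the 6 fits that left out 1 library. The intestinal factor CDX2 had 0.208, 0.128 and 0.0755 CPM in Cas9 and 0.179, 0.0485 and 0.11 CPM in the cGAS KO.

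Of 16 keratins, all tested, 6 rose (5 without replicate 1) and 14 had a log2 difference above 0 (median 1.40). KRT17, a stress-responsive keratin, had 123, 151 and 169.9 CPM in Cas9 and 353, 805 and 1054 CPM in the cGAS KO (log2 difference 2.18, adjusted p = 0.00392). KRT4, a keratin of stratified mucosa, overlapped between groups but was higher in the cGAS KO within each batch (3.96, 40.5 and 11.7 CPM against 16, 133 and 135 CPM; log2 difference 2.36, adjusted p = 0.00569). KRT8 and KRT19, keratins of simple epithelium, were abundant in both clones. KRT19 had 1787, 2533 and 1998 CPM in Cas9 and 10040, 5262 and 5240 CPM in the cGAS KO, with replicate 1 far above the other 2 (1.71, adjusted p = 0.0254, lost without Cas9 replicate 1, Cas9 replicate 2, Cas9 replicate 3 or cGAS KO replicate 3, adjusted p between 0.0736 and 0.145). KRT8, KRT15 and KRT16 also passed, with log2 differences of 1.62, 0.96 and 2.31, and each lost its call in at least 3 of the 6 fits without 1 library. Counts of KRT16 and KRT17 may hold reads of near-identical pseudogenes.

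As a check of the labelled cell type, 6 defining epithelial markers were detected in all libraries, and summed to between 3757 and 5280 CPM in Cas9 and between 9804 and 19690 CPM in the cGAS KO. Of these 6, 5 rose (3 without replicate 1). Of the 5 squamous markers, DSG3 alone passed (at most 2 counts per Cas9 library; 0, 1.7 and 1.37 CPM in the cGAS KO, adjusted p = 0.0481). Its call held without replicate 1 but was lost in 5 of the 6 fits without 1 library, adjusted p up to 0.314. The 5 markers summed to between 48.2 and 56.9 CPM in Cas9 and between 32.1 and 131 CPM in the cGAS KO. Markers of fibroblasts (5 of 6 tested), leukocytes (3 of 6) and endothelium (4 of 4) passed in neither direction, with or without replicate 1. Their sums were between 29.5 and 62.8, 10.2 and 28, and 6.57 and 13.95 CPM in Cas9, and between 4.47 and 83.3, 7.07 and 10.7, and 7.20 and 12.5 CPM in the cGAS KO. CD3E and LYZ were at 0 in all Cas9 libraries, and ITGAM in all cGAS KO libraries.

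Outside long runs of neighbouring genes, described further on, the 12 largest rises were in genes of several roles. MAL2, a membrane protein of apical transport, had 1.77, 1.28 and 2.64 CPM in Cas9 and 318, 174 and 328 CPM in the cGAS KO (log2 difference 7.17, SE 0.28, adjusted p = 5.26e-07). DHRS9, a retinol dehydrogenase, had 7.71, 6.93 and 8.76 CPM in Cas9 and 159.6, 249.9 and 473 CPM in the cGAS KO (log2 difference 5.10, adjusted p = 7.34e-05). TSPAN8, an epithelial tetraspanin, went from 0.417, 0.727 and 0.792 to 29.8, 26.1 and 62.3 CPM (6.01, adjusted p = 0.000354). FUT3, the fucosyltransferase of Lewis antigens, was at 3 counts or fewer in each Cas9 library and at 1.49, 9.66 and 8.28 CPM in the cGAS KO (adjusted p = 0.00027). PRSS8, the membrane serine protease prostasin, went from 0.0521, 0.342 and 0.151 to 2.14, 8.4 and 10.6 CPM (5.23, adjusted p = 0.000714). Its Cas9 libraries held 1, 8 and 4 counts, so its fold depends on few reads.

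SYK, a kinase best known from immune receptors, had 0, 0 and 0.151 CPM in Cas9 and 4.7, 12.6 and 12.8 CPM in the cGAS KO (adjusted p = 0.000123). Its Cas9 libraries held 0, 0 and 4 counts, so that its fold depends on few reads and none is given. IL1R2, the decoy receptor of interleukin-1, had 0.104, 0.0856 and 0.302 CPM in Cas9 and 6.91, 7.67 and 15.1 CPM in the cGAS KO (5.88, adjusted p = 7.71e-06). PPP1R14A, an inhibitor of myosin phosphatase, had its highest value in replicate 1, with 16.9, 1.84 and 2.63 CPM in the cGAS KO against 0.313, 0.128 and 0.0377 CPM in Cas9 (5.21, and 4.5 without that library). EPS8L1, a regulator of actin, was also among the 12 (5.07, adjusted p = 0.00027). In Cas9, IL1R2 held 2, 2 and 8 counts, PPP1R14A 6, 3 and 1, and EPS8L1 2, 9 and 9. The folds of these genes also depend on few reads.

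Of the 12 largest falls outside such runs, LRP3, a receptor of the LDL receptor family, had 22.5, 49.6 and 43.2 CPM in Cas9 and 0.0595, 0.728 and 0.274 CPM in the cGAS KO (log2 difference -6.78, SE 0.53, adjusted p = 7.77e-05). GPC4, a glypican of the cell surface, fell from 15.5, 13.3 and 14.8 CPM to 0.179, 0.583 and 0.658 CPM (-4.93, adjusted p = 7.82e-05). The Cas9 libraries of GPC4 lay close together, and the groups did not overlap. In the cGAS KO, LRP3 held 1, 15 and 5 counts and GPC4 3, 12 and 12, so both folds depend on few reads. Among secreted proteins that bind insulin-like growth factors, IGFBP5 had 5.53, 142 and 110.5 CPM in Cas9, lowest in replicate 1, and 0, 0.728 and 0.11 CPM in the cGAS KO (adjusted p = 0.00157, with 0, 15 and 2 counts and so no fold), and IGFBP2 went from 8.5, 12.1 and 20.3 to 0.774, 0.34 and 0.603 CPM (-4.49, adjusted p = 0.00026). RTL1, an imprinted gene derived from a retrotransposon, and CHRDL1, an antagonist of bone morphogenetic proteins, were at 2 counts or fewer in every cGAS KO library. RTL1 had 21.5, 28.1 and 37.5 CPM in Cas9 (adjusted p = 0.00045) and CHRDL1 3.34, 11.3 and 14.6 CPM (adjusted p = 0.00045).

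TH, tyrosine hydroxylase, had 25.9, 17.7 and 10.1 CPM in Cas9 and 0.833, 0.583 and 0.0548 CPM in the cGAS KO (log2 difference -5.23, adjusted p = 0.00209). TBX3, a transcription factor, had 5.32, 2.78 and 7.4 CPM in Cas9 and 0, 0.243 and 0 CPM in the cGAS KO (adjusted p = 0.00448). TNFSF9, a costimulatory ligand of T cells, fell from 14, 10.4 and 12.1 to 0.0595, 0.485 and 0.932 CPM (-4.68, adjusted p = 0.000859). In the cGAS KO, TH held 14, 12 and 1 counts and TNFSF9 1, 10 and 17, so both folds depend on few reads. SPANXB1, a cancer-testis gene with near-identical copies, also fell (-4.0, adjusted p = 0.027), but its call was lost without Cas9 replicate 2, Cas9 replicate 3, cGAS KO replicate 2 or cGAS KO replicate 3, adjusted p between 0.0567 and 0.148.

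Interferon-stimulated genes, the far end of the cGAS pathway, fell in a few members. Of 28 listed, 27 were tested, 4 fell and 0 rose, and the median was -0.39. In 12 of the 27, all cGAS KO libraries lay below all Cas9 libraries, as they did in 11.3% of all genes tested. In 3 of the 27 they all lay above, against 9.72% of all genes tested. Long runs held 7 of the 27. Without replicate 1, 4 fell and 1 rose (SAMD9, 1.93, adjusted p = 0.0175), and over the 6 fits without 1 library between 1 and 5 fell. SAMD9 lies in the higher run of chromosome 7, whose median was 0.57. OASL, an oligoadenylate synthetase-like protein, had 34.7, 21.8 and 23.5 CPM in Cas9 and 0.417, 2.91 and 2.58 CPM in the cGAS KO. It kept its call in all 6 (log2 difference -3.86, SE 0.58, adjusted p = 0.00384). HERC5, the ligase of ISG15, had 6.78, 5.52 and 5.58 CPM in Cas9 and 2.32, 0.631 and 0.493 CPM in the cGAS KO (-2.55, adjusted p = 0.0145), and lost its call without Cas9 replicate 2, Cas9 replicate 3 or cGAS KO replicate 3, adjusted p between 0.0612 and 0.0968. IFIT1 and IFIT2, which bind viral RNA, lie on the part of chromosome 10 that was lower as a whole, by a median of -0.50. They differed by -1.09 and -1.43 (adjusted p = 0.0125 and 0.00887). IFIT1 lost its call without Cas9 replicate 1, Cas9 replicate 2, Cas9 replicate 3 or cGAS KO replicate 3, adjusted p between 0.0569 and 0.0906, and IFIT2 without Cas9 replicate 3 or cGAS KO replicate 3, adjusted p between 0.0663 and 0.0679. ISG15, the ubiquitin-like modifier, had 112, 95.5 and 95.9 CPM in Cas9 and 361, 58.1 and 74.9 CPM in the cGAS KO, and did not pass. Its direction turned on replicate 1 (log2 difference 0.47 with it, -0.61 without it).

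Of 26 chemokines and cytokines, 25 were tested, 4 rose and 3 fell, and the count was fragile (without replicate 1, 6 rose and 1 fell). CX3CL1, a membrane-bound chemokine, had 1.77, 1.2 and 0.943 CPM in Cas9 and at most 3 counts in each cGAS KO library (adjusted p = 0.00384, kept in all 6 fits). CCL2, the monocyte chemokine, had 1.15, 0.214 and 0.264 CPM in Cas9 and 0 counts in all 3 cGAS KO libraries, at least 3.33-fold lower against 3 counts per library (adjusted p = 0.0237, lost without Cas9 replicate 1, Cas9 replicate 3, cGAS KO replicate 1 or cGAS KO replicate 3, adjusted p between 0.0559 and 0.0966). IL6 had 5.06, 0.342 and 0.264 CPM in Cas9, highest in replicate 1, and 0.298, 0.0971 and 0 CPM in the cGAS KO (log2 difference -3.39, adjusted p = 0.0174, lost without Cas9 replicate 1, Cas9 replicate 3, cGAS KO replicate 1 or cGAS KO replicate 3, adjusted p between 0.056 and 0.156). The groups of IL6 overlapped, and its cGAS KO libraries held 5, 2 and 0 counts, so its fold depends on few reads. CXCL16, a transmembrane chemokine, rose (3.23, 5.65 and 3.55 against 6.19, 22.1 and 21.9 CPM; 1.88, adjusted p = 0.0109, lost without Cas9 replicate 2, Cas9 replicate 3 or cGAS KO replicate 3, adjusted p between 0.0573 and 0.082). IL32, CSF2 and PPBP also rose, each with a call that was lost in at least 3 of the 6 fits. The groups overlapped in IL32 and CSF2. PPBP held 2, 1 and 1 counts in Cas9 and 7, 7 and 32 in the cGAS KO. CXCL8, which encodes interleukin-8, had 231, 15.3 and 25.4 CPM in Cas9 and 148, 33.8 and 134 CPM in the cGAS KO. It was highest in batch 1 in both genotypes, and the groups overlapped (log2 difference 0.82, adjusted p = 0.588).

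MHC class I genes, which present peptides to T cells, were mostly above 0. All 14 listed were tested, 13 had a log2 difference above 0, 4 rose (5 without replicate 1) and 0 fell, with a median of 0.99. In 8 of the 14, all cGAS KO libraries lay above all Cas9 libraries, as they did in 9.72% of all genes tested. HLA-C had 36.5, 52.3 and 43.2 CPM in Cas9 and 74.2, 103 and 139 CPM in the cGAS KO (1.23, adjusted p = 0.0262), and TAP2, a peptide transporter, went from 9.07, 9.71 and 7.92 to 28, 18.4 and 16.8 CPM (1.23, adjusted p = 0.0201). HLA-B and HLA-F passed with all libraries only (adjusted p = 0.0369 and 0.0372, against 0.0909 and 0.0852 without replicate 1). Each of the 4 calls was lost in at least 4 of the 6 fits without 1 library, and HLA genes may share reads with one another.

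Among stress and metabolic lists, NRF2 targets fell in 3 of 12 members (3 without replicate 1 too), the aldo-keto reductases AKR1C1, AKR1C2 and AKR1C3, near-identical neighbours whose reads may be shared. AKR1C2 had 87.2, 31.4 and 16.8 CPM in Cas9 and 3.81, 2.57 and 1.7 CPM in the cGAS KO (log2 difference -3.88, adjusted p = 0.00082), and AKR1C1 and AKR1C3 differed by -2.35 and -2.04 (adjusted p = 0.00769 and 0.015). AKR1C3 lost its call without Cas9 replicate 1 or cGAS KO replicate 3, adjusted p between 0.0695 and 0.0817. Of 13 genes of the ATF4 stress response, 2 rose (CHAC1 by 2.01 and PHGDH by 1.22, each lost in 3 of the 6 fits without 1 library), and 6 without replicate 1. Of 14 genes of hypoxia and glycolysis, 3 fell, with log2 differences of -0.98, -1.02 and -1.05 for NDRG1, PDK1 and ALDOC, each call lost in at least 4 of the 6 fits (1 fell without replicate 1). PDK1 lies in a lower run of chromosome 2 (29 genes, median -0.41). Of 13 mitochondrially encoded genes, 2 rose (MT-CO2 and MT-ND3, lost in 4 and 5 of the 6 fits, with 2 that rose without replicate 1), beside the mitochondrial shares given above, whose part was not tested. The lists of mitosis (18 genes), of DNA replication (17), of heat shock (10) and of AP-1 (14) passed in 0 members in either direction, with medians of 0.03, -0.32, -0.29 and -0.53. Without replicate 1, 1 gene of DNA replication fell and the other 3 lists still had 0. One gene passed in each of the lists of NF-kB (BIRC3, 1.74), the unfolded protein response (PDIA4, 1.37), cholesterol and fatty acid synthesis (INSIG1, 1.43) and p53 targets (FDXR, 1.56), and none of these 4 calls held in all 6 fits. Without replicate 1, these lists had 3, 1, 2 and 0 genes that rose. BIRC3 lies in the higher run of chromosome 11 described below (median 0.52), and PDIA4 and INSIG1 in that of chromosome 7 (0.57). GATA6 was the 1 gene that passed among 12 genes often amplified in esophageal adenocarcinoma, while 2 rose and 1 fell without replicate 1. MHC class II (6 tested) and cancer-testis genes (4 tested) had 0 in both fits.

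Genes that lie next to each other on a chromosome also differed together. The 10477 genes with a mean of at least 5 CPM were ordered by their start, and a running median of the log2 difference was taken over 31 neighbours. Stretches where it left the median of all genes by at least 0.3 made up 21 runs with 1973 genes (18.8%), 8 higher and 13 lower. The runs were found on the same values, so their medians in DMSO are a description. The 6 MPS1i libraries of the same clones entered the fit, but their differences were not used to find them. The 10 runs of at least 50 genes held 1677 genes, 5 higher and 5 lower, and in all 10 the 3 cGAS KO libraries lay beyond the 3 Cas9 libraries in MPS1i as they did in DMSO.

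The deepest run was on the short arm of chromosome 3 (chr3:3126916-27635427, GRCh38), where 85 genes from TRNT1 on had a median log2 difference of -1.01. Of these, 98.8% lay below the median of all ordered genes (0.008). Against the mean of the Cas9 DMSO libraries, and relative to genes outside runs, the cGAS KO libraries had medians between -1.07 and -0.79 in DMSO and between -1.02 and -0.82 in MPS1i, and the Cas9 libraries between -0.03 and 0.06 in MPS1i. Of the 85 genes, 32 fell (37.6%, against 2.41% of all ordered genes, and 38 without replicate 1), among them UBE2E2, a ubiquitin-conjugating enzyme (-1.36, adjusted p = 0.00392), BTD, biotinidase (-1.45, adjusted p = 0.00407), and IRAK2, a kinase of interleukin-1 and Toll-like receptor signaling (-1.80, adjusted p = 0.00485). IRAK2 had 49.3, 24.5 and 21.1 CPM in Cas9 and 8.1, 7.33 and 9.38 CPM in the cGAS KO, which did not overlap.

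The widest run covered most of chromosome 7 (chr7:32485332-158830253), with 385 genes at a median of 0.57 (0.52 without replicate 1, 0.53 in MPS1i). The cGAS KO libraries were between 0.44 and 0.72 in DMSO and 0.46 and 0.59 in MPS1i, and 37 genes rose (9.61%, against 3.66% of all ordered genes), a count that was 57 without replicate 1. CLDN4 lies in it. INHBA, a subunit of activins, lies in it and fell (15.9, 25.7 and 16.5 against 1.73, 2.52 and 1.81 CPM; -3.25, adjusted p = 0.000132). PRSS1, a trypsinogen whose reads may be shared with PRSS2, was at 1 count or fewer in Cas9 and at 4.52, 19.6 and 63.2 CPM in the cGAS KO. Both runs on the short arm of chromosome 2 (chr2:38814-36966472 and chr2:42333546-86623866) were higher, with 116 and 157 genes at medians of 0.48 and 0.50. KCNS3, a potassium channel subunit, lies in the first of them and rose further (0.417, 0.599 and 0.453 against 40.2, 62.5 and 51.8 CPM; 6.70, adjusted p = 2.59e-06), and EPCAM lies in the second. Within the first, TRIB2, a pseudokinase, fell (-1.89, adjusted p = 0.00408).

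Chromosome 11 held neighbours of opposite sign. A run of 118 genes (chr11:66480013-82970584) had a median of -0.53, and a run of 144 genes further along the arm (chr11:94493629-134378341) a median of 0.52, which was 0.70 in MPS1i. SYT12, a synaptotagmin, fell in the first (22.7, 38.5 and 21.5 against 2.62, 6.94 and 3.12 CPM; -2.78, adjusted p = 0.00135). In the second, CADM1, a cell adhesion molecule, went from 0, 0.214 and 0 to 20.4, 88.2 and 103 CPM (adjusted p = 2.36e-05, with 0, 5 and 0 counts in Cas9 and so no fold), ST14, the membrane protease matriptase, from 8.39, 22.9 and 16.7 to 86.8, 244 and 275 CPM (3.59, adjusted p = 7.82e-05), and TMPRSS4, another membrane protease, from at most 3 counts to 0.417, 15.6 and 25.3 CPM (adjusted p = 0.000123). On chromosome 10 (chr10:45000475-133373689), 314 genes had a median of -0.50 (-0.46 without replicate 1, -0.39 in MPS1i). Of them, 35 fell (11.1%, against 2.41% of all ordered genes, and 30 without replicate 1) and 8 rose (8 without replicate 1). ACSL5, an acyl-CoA synthetase, fell (-2.49, adjusted p = 0.00392), while ANKRD1 and PWWP2B rose (1.91 and 1.53, adjusted p = 0.00284 and 0.00558). Shorter stretches were higher on chromosome 14 (50 genes, 0.49) and lower on chromosome 20 (83 genes, -0.41, and -0.26 in MPS1i). CPNE1, a copine that binds phospholipid, led the latter (-1.24, adjusted p = 0.00859, lost without Cas9 replicate 2, Cas9 replicate 3 or cGAS KO replicate 3, adjusted p between 0.0513 and 0.0734). With its shorter runs, 207 of 301 ordered genes of chromosome 20 lay in lower runs. The median of the whole chromosome was -0.35 (-0.36 without replicate 1, -0.33 in MPS1i).

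The 11 runs of 15 to 46 genes had medians in MPS1i of the same sign as in DMSO but as small as 0.05 in size, and were not described one by one. Of the genes called over the whole table, 163 of 652 higher and 175 of 463 lower ones start inside a run, as do 4137 of all 22782 genes tested. Runs and calls came from the same differences, so these counts are a description. Among ordered genes outside the runs, 3.26% were higher and 1.42% lower, against 3.66% and 2.41% of all ordered genes. Copy number was not measured here, and its part in these stretches was not tested.

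**Figure D2:**
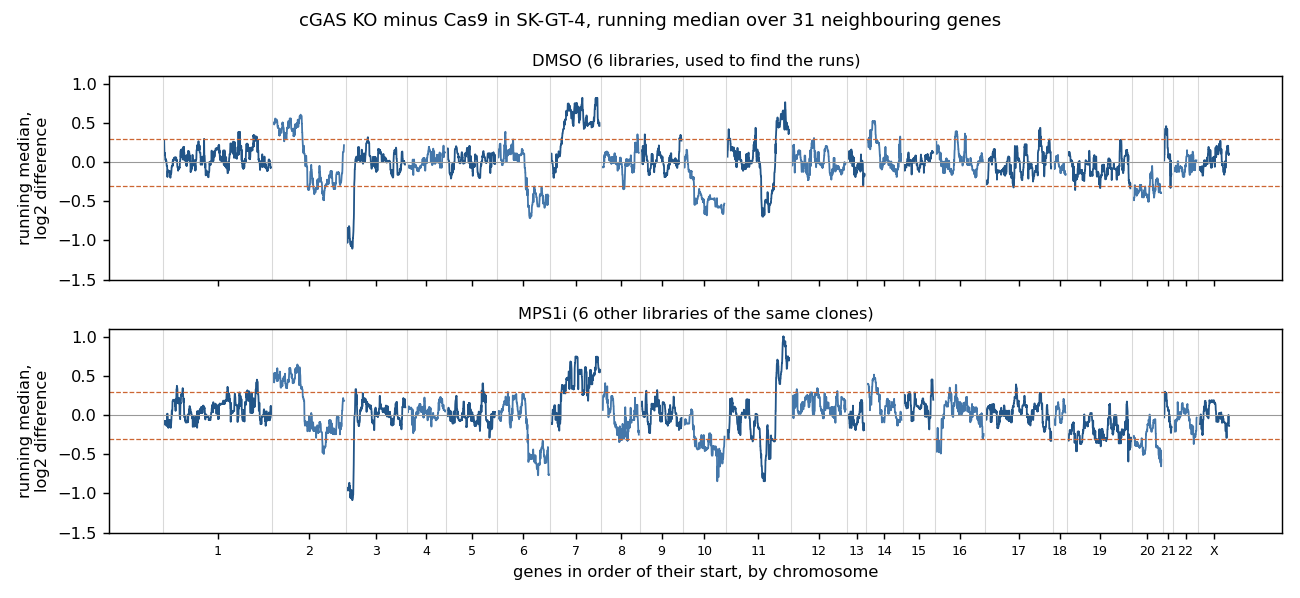
Running median of the log2 difference, cGAS KO minus Cas9, over 31 neighbouring genes (vertical axis), with genes in order along each chromosome (horizontal axis); dashed lines mark 0.3 on either side of 0. The dip at the start of chromosome 3, the rises of chromosomes 2 and 7, the falls of 6, 10 and 20, and the fall and rise along chromosome 11 appear in DMSO and in the 6 MPS1i libraries.

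CGAS itself lies at the edge of a lowered stretch of chromosome 6. By the running median the run was 225 genes long, from CGAS to PDCD2 (chr6:73413515-170584692), with a median of -0.51 (-0.52 without replicate 1, -0.54 in MPS1i). Its edge was not resolved to a gene. With CGAS left out, the single split of the chromosome that fitted the differences best lay between TMEM14A and CILK1 (start 53001279) with all libraries, between SDHAF4 and SMAP1 (start 70667776) without cGAS KO replicate 1, and between FAM135A and SDHAF4 (start 70566917) in MPS1i. The 25 genes just before CGAS had a median of -0.20, the 25 just after it -0.50, and the whole chromosome before it 0.09. The log2 difference of CGAS was -2.01, beside -0.51 for the stretch. Of the 225 genes, 27 fell (12%, against 2.41% of all ordered genes, and 23 without replicate 1) and 6 rose (7 without replicate 1). GJA1, which encodes the gap junction protein connexin, fell (188, 217 and 277 against 30.7, 51.1 and 101 CPM; -2.03, adjusted p = 0.00172). CCN6, a secreted matricellular protein, rose (1.77, 0.556 and 0.377 against 23.6, 12.2 and 15.5 CPM; 4.42, adjusted p = 0.00157). In the OE33 clones, the genes of chromosome 6 before and after CGAS had medians of -0.24 and -0.07.

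**Figure D3:**
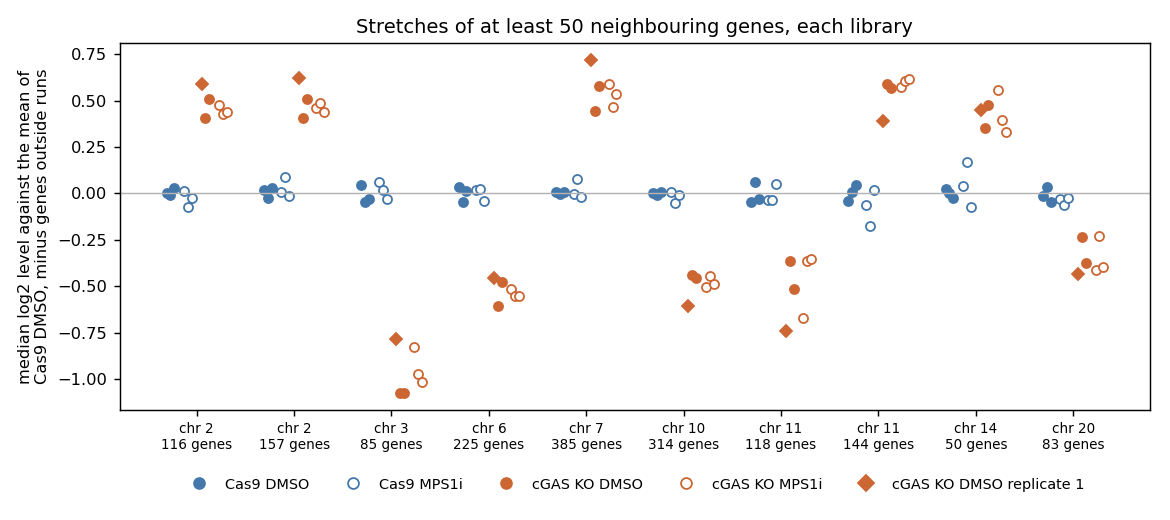
Each point is the median level of a stretch in 1 library, as log2 against the mean of the 3 Cas9 DMSO libraries and relative to genes outside runs, so that the Cas9 DMSO points center on 0 by construction; open points are MPS1i libraries and the diamond is cGAS KO DMSO replicate 1. The cGAS KO libraries sit together away from 0 in all 10 stretches, between -1.07 and -0.79 for chromosome 3 in DMSO, in both treatments.

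A shorter cluster stood out on chromosome 17 (chr17:74862497-74973166), where FDXR, USH1G, OTOP2, OTOP3 and HID1, 5 neighbouring genes with a mean of at least 1 CPM, all rose. OTOP2, a proton channel, had 0.0521, 0.257 and 0.151 CPM in Cas9 and 3.27, 13 and 13.8 CPM in the cGAS KO (5.96, adjusted p = 1.26e-05), and its neighbour and relative OTOP3 had 0.104, 0.257 and 0.151 and 2.44, 6.07 and 4.93 CPM (4.69, adjusted p = 0.00026). In Cas9, OTOP2 held 1, 6 and 4 counts and OTOP3 2, 6 and 4, so both folds depend on few reads. USH1G, a scaffold protein of hair cells, and HID1, a trafficking protein, differed by 3.86 and 2.42 (adjusted p = 0.000123 and 0.000714). FDXR, ferredoxin reductase, was the weakest, at 52.9, 61.1 and 50.1 CPM in Cas9 and 237, 123 and 118 CPM in the cGAS KO (1.56, adjusted p = 0.0299), with replicate 1 the highest, and lost its call without Cas9 replicate 1, Cas9 replicate 2, Cas9 replicate 3, cGAS KO replicate 1 or cGAS KO replicate 3, adjusted p between 0.0612 and 0.149. In MPS1i, the other four differed by between 2.52 and 4.93 and passed, and FDXR had 0.45 (adjusted p = 0.524).

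The same clones in MPS1i gave a repeat of the comparison in 6 other libraries, which share the fit with the DMSO libraries but no samples with them. There, 565 genes were higher in the cGAS KO (2.48%) and 453 lower (1.99%). Of the 652 and 463 DMSO calls, 403 and 290 were also called in MPS1i in the same direction, 0 in the opposite one, and 1110 of 1115 had the same sign. ESRP1 differed by 4.87, CLDN4 by 4.13, CDH1 by 3.54 and OASL by -3.69 (adjusted p = 6.73e-06, 0.0001, 0.00226 and 0.00427). Some DMSO calls had smaller differences in MPS1i, such as KRT17 (0.85, adjusted p = 0.175) and IL32 (0.17, adjusted p = 0.873). The test of the difference between treatments, with edgeR, passed in 0 of 22782 genes (550 had an unadjusted p under 0.05, and DESeq2 and limma voom also passed 0), so no gene was shown to depend on treatment. Without cGAS KO DMSO replicate 1 and Cas9 MPS1i replicate 2, whose deviation followed that of the former (r = 0.79 over 10363 genes, a description), 14 passed.

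In OE33, 926 genes passed (4.53%). Without OE33 cGAS KO replicate 2 the number was 2063, and without the batch block it was 56. Of the 926, 564 genes were higher in the cGAS KO than in Cas9 in DMSO (2.76% of 20426 tested) and 362 lower (1.77%). Of these, 61 were also higher in SK-GT-4, which is 10.2% of the SK-GT-4 calls and 11% of the OE33 calls tested in both lines, and 25 were lower in both (6.9% and 7.1%). In 19 genes the call was higher in SK-GT-4 and lower in OE33, and in 13 the reverse. CGAS was lower in OE33 too (-2.50, adjusted p = 0.00378). Of the 12 epithelial state genes, 0 passed in OE33 (median -0.13), where CDH1, EPCAM, CLDN4 and ESRP1 differed by 0.16, -0.17, 0.35 and -0.24. Interferon-stimulated genes went the other way, with 13 of 28 higher in the OE33 cGAS KO and 0 lower. The test of the difference between the lines, given further on, was not read for this list. IFIT1 differed by 2.19 in OE33 (adjusted p = 0.00114). CEACAM6 and TSPAN8 were among the genes higher in both lines (1.15 and 3.12 in OE33, adjusted p = 5.36e-05 and 0.00723).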

How the data were processed

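RNA of the 6 SK-GT-4 libraries in DMSO was selected for poly(A) and sequenced by the authors as paired reads, mapped to GRCh38 with HISAT2 2.0.5 and counted per gene with featureCounts 1.5.0 (per the submitters' processing notes). The deposited values are raw counts for 58735 genes. The annotation release, strand setting and handling of reads with several matches are not given in the sources used here, so paralogs and overlapping genes can share reads.

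In R 4.3.3, genes with a total of at least 5 counts and a count in at least 4 of the 12 SK-GT-4 libraries were kept (22782). edgeR 4.0.16 was fitted to these 12 libraries with group terms, the batch as a block and TMM scaling, and differences were tested by its quasi-likelihood test with Benjamini-Hochberg adjustment. Same-batch libraries of both genotypes deviated together (r = 0.473, 0.470 and 0.365 over 10363 genes), and the labels state the batch. No 2 libraries were duplicates. OE33 was fitted alike. Alternatives used DESeq2 1.42.0 and limma 3.58.1 (voom with sample weights). The scripts were tested on simulated data.

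The genes and lists were chosen with earlier results of these data known. The text names CGAS, STING1, called list members, the 12 highest and 12 lowest protein-coding genes outside runs that passed with and without cGAS KO replicate 1, did not overlap and reached 5 CPM, the 3 genes of smallest p in each run, and all genes of a short run. Genes that start within a run were counted as inside it, a reading chosen after values were seen, as was the limit of 50 genes for runs described singly. List members that did not pass, and the genes named for both lines, were chosen after their values were seen. Some genes are not reported here.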

Additional observations from a re-analysis of the deposited data

Results flagged for a closer look

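Results of the cGAS KO against Cas9 in DMSO that differed between SK-GT-4 and OE33 were tested in a fit of all 24 libraries with a batch block per cell line, which was added after the data were seen. Of 19147 genes tested in both lines, 958 passed the threshold of 0.05 for the adjusted p (5.0%). The test was read for the 7 called genes of the epithelial and mesenchymal lists. They were chosen by their calls in SK-GT-4, which favors a large difference between the lines. Each genotype of a line was treated as 1 clone, so differences between lines and between clones cannot be told apart. The log2 difference in SK-GT-4 minus that in OE33 was 3.35 for CDH1 (SE 0.50, adjusted p = 0.000618), 2.85 for EPCAM (SE 0.44, adjusted p = 0.000846), 4.17 for CLDN4 (SE 0.34, adjusted p = 1.13e-06), 5.71 for ESRP1 (SE 0.24, adjusted p = 1.98e-10) and 1.64 for CDH3 (SE 0.35, adjusted p = 0.00906). In OE33, CDH1 had means of 477 and 552 CPM in Cas9 and cGAS KO, and ESRP1 105 and 88.9 CPM. All 5 calls held when replicate 1 of the SK-GT-4 knockout or replicate 2 of the OE33 knockout was left out. ZEB2 and SNAI1 did not pass (-4.39 and -1.99, adjusted p = 0.421 and 0.0745).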

How the results depend on the processing

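CGAS was lower in the cGAS KO and passed under all 15 alternatives (log2 difference between -2.32 and -1.73, and between -2.21 and -1.73 without 1 library). Counts of called genes moved more. Leaving out 1 DMSO library gave between 177 and 819 higher and between 118 and 498 lower genes. The reported fit paired the groups by batch, and without this block 471 genes were higher and 306 lower. DESeq2 gave 1342 higher and 990 lower genes, limma voom 2912 and 2678, a fit without Cas9 MPS1i replicate 2 1224 and 964, one without that library and cGAS KO DMSO replicate 1 2471 and 1945, and an adjusted p of at most 0.01 250 and 150. Without cGAS KO DMSO replicate 1, DESeq2 gave 1304 and 804, limma voom 2515 and 1705, the 5 DMSO libraries alone 1983 and 1440, and an adjusted p of at most 0.01 358 and 149. These alternatives without replicate 1 were chosen after seeing the data. The cause was not tested. Of genes whose difference depended on treatment, 14 passed without both libraries. In OE33, the 926 calls became 56 without the block and 2063 without cGAS KO DMSO replicate 2. Of 138 results on named genes, between 10 and 58 lost the call without 1 library and 29 without the block. No called result reversed under any alternative that was run.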
